A study of Trichoderma reesei with 36 samples.

Results

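The 6 genes described here of *Trichoderma reesei* Rut-C30 were selected on their measured RNA levels, for being higher on glucose-lactose mixtures than on pure glucose and on pure lactose at 1 or both sampling times. They are 6 of the 9129 genes counted in each library, and all 6 passed the filter on low counts. Their IDs are 105805 (a putative Zn2Cys6 transcription factor), 105798 (a putative MFS transporter), 105222 (a putative protein of unknown function), 76374, 122084 and 110117. The last 3 IDs have no annotation in the sources used here and are given no role.

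Rut-C30 is a cellulase-hyperproducing mutant strain with a truncated *cre1* gene, so every culture of this series was impaired in CRE1-dependent carbon catabolite repression. Cultures were grown on glucose until it was exhausted, and flasks filled from them then received a feed of glucose alone (G100), lactose alone (L100), 75% glucose with 25% lactose (G75-L25) or 90% glucose with 10% lactose (G90-L10). Per the protocol, the broth of 1 such culture filled flasks with different feeds, so libraries on different feeds can share a starting culture. Mycelium was sampled at 24 h and 48 h of feeding. There were 36 libraries in 8 groups, with 6 libraries per time on each pure feed, 4 on G75-L25 and 2 on G90-L10. The study describes the cultures as independently repeated, but the library labels name no culture, so p-values here measure only the spread between libraries and treat libraries that may share a starting culture as independent. A flask is a whole mycelium, so more cells expressing a gene and more RNA per cell cannot be told apart.

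Zn2Cys6 proteins are a family of fungal transcription factors that bind DNA through a zinc cluster, and its members often regulate sugar use or the genes of a nearby metabolic cluster. Transporters of the major facilitator superfamily (MFS) move sugars, other nutrients, drugs or toxins across membranes, and some lie inside such clusters. In *T. reesei*, lactose is an inducer of cellulase genes that is used in industry, and glucose normally represses them through CRE1.

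Labels of the pure-feed libraries start with 2014 and those of the mixtures with 2015, so the kind of feed and the label year cannot be told apart. The difference between mixtures and pure feeds also chose these genes. It is therefore described without a test, and tests were made only within a label year. Total counts ranged from 9955798 to 49808747 per library for the pure feeds and from 16364418 to 29101580 for the mixtures. Levels are CPM, read counts scaled to a common library size after TMM, a normalization for library composition, and a prior count of 2 was added before taking log2.

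Of the 36 libraries, 3 stood apart from their groups. In replicate 3 of L100 at 48 h, the cellulase and lactose genes CBH1, CBH2, CEL5A, CEL7B, CEL61A, BGA1 and CRT1 together made up 1.1% of counts. They made up 27.1% to 31.4% in the other 5 libraries of that group and 1.71% to 4.70% on G100 at 48 h. Replicate 4 of G75-L25 stood apart at both times. There these genes made up 17.5% at 24 h, against 14.8% to 16.7% in replicates 1 to 3. At 48 h they made up 19.5%, against 13.6% to 15.2%. Its chi-square per degree of freedom, a measure of disagreement, was 170 to 271 against replicates 1 to 3 at 24 h and 236 to 272 at 48 h. Libraries that were kept reached 217 within a group (replicates 2 and 6 of G100 at 48 h). At 24 h, replicate 4 was thus not clearly apart by this measure. Results are given over 36 libraries and, where they differ, over the 33 others.

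The Zn2Cys6 factor ID 105805 had 0 to 13 counts per library on pure feeds at 24 h and 0 to 65 at 48 h, and 65 to 337 in 10 of the 12 mixture libraries. On G90-L10, its level was 2.40 and 13.6 CPM at 24 h and 4.08 and 12.3 CPM at 48 h. On G75-L25, the levels of replicates 1 to 4 were 9.31, 4.38, 6.90 and 0.0999 CPM at 24 h and 6.08, 4.65, 5.28 and 0.214 CPM at 48 h. The low values are those of replicate 4, where 2 and 5 reads were counted, against 103 to 239 in the other 6 libraries of this feed.

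On G100, ID 105805 had a lowest, median and highest level of 0.0335, 0.127 and 0.475 CPM at 24 h, which correspond to 1 to 11 counts. At 48 h these were 0.112, 0.724 and 1.90 CPM. On L100 they were 0, 0.134 and 0.434 CPM at 24 h and 0, 0.161 and 1.01 CPM at 48 h. In each of the 4 pure-feed groups replicate 2 was the highest, but replicate numbers follow the order of the samples and which libraries share a culture is not given. Both pure feeds overlapped at both times, and 5 of the 6 mixture libraries lay above all 12 pure-feed libraries at each time. The fitted log2 fold change was 5.56 for G90-L10 and 4.94 for G75-L25 against G100 at 24 h, and 3.34 and 2.33 at 48 h. Against L100 it was 5.24 and 4.62 at 24 h and 4.62 and 3.61 at 48 h. Over 33 libraries the values for G75-L25 against G100 were 5.36 at 24 h and 2.71 at 48 h.

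The MFS transporter ID 105798 followed the same pattern at lower counts, and passed the filter only through the mixtures. Its level on G90-L10 was 0.850 and 7.08 CPM at 24 h and 1.05 and 7.72 CPM at 48 h. On G75-L25 it was 2.69, 1.17, 2.06 and 0.050 CPM at 24 h and 1.77, 1.90, 1.96 and 0.0856 CPM at 48 h. Replicate 4 was again at the level of pure feeds, with 1 and 2 counts.

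On L100, no library had more than 2 counts of ID 105798. On G100, its lowest, median and highest levels were 0, 0.0826 and 0.268 CPM at 24 h and 0, 0.235 and 0.583 CPM at 48 h. Against a floor of 3 counts per library on L100, the mean level was at least 20.2-fold higher on G90-L10 and at least 7.59-fold higher on G75-L25 at 24 h. At 48 h the bounds were 29.7-fold and 9.70-fold. The bounds for G90-L10 rested on replicate 2, and with replicate 1 alone they were 4.32-fold at 24 h and 7.13-fold at 48 h. Those for G75-L25 do not hold for its replicate 4, which lay below the floors of 0.197 CPM at 24 h and 0.147 CPM at 48 h. Over 33 libraries, without that replicate, they were 10.0-fold and 11.9-fold. Against G100, the fitted log2 fold change was 5.21 for G90-L10 and 3.82 for G75-L25 at 24 h, and 4.01 and 2.40 at 48 h. These rest on few reads on G100, 0 to 6 per library at 24 h and 0 to 20 at 48 h. Those for G90-L10 again rest largely on replicate 2. Over 33 libraries those for G75-L25 were 4.22 at 24 h and 2.77 at 48 h.

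ID 105222 was well counted in every library, with 61 to 2901 reads. It measured 78.9 and 66.8 CPM on G90-L10 at 24 h and 88.0 and 132 CPM at 48 h. On G75-L25 it measured 75.5, 42.1, 70.4 and 34.9 CPM at 24 h and 121, 104, 90.9 and 49.3 CPM at 48 h. The lowest value was that of replicate 4 at both times.

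On pure feeds the level of ID 105222 depended on the feed and the time. Its lowest, median and highest levels on G100 were 2.31, 5.0 and 8.54 CPM at 24 h and 11.7, 23.8 and 54.7 CPM at 48 h. On L100 they were 17.1, 21.3 and 25.1 CPM at 24 h and 6.54, 15 and 26.9 CPM at 48 h. All 6 mixture libraries lay above all pure-feed libraries at 24 h. At 48 h, 5 of 6 did, and replicate 4 of G75-L25 lay below replicate 2 of G100. The fitted log2 fold change at 24 h was 3.86 for G90-L10 and 3.47 for G75-L25 against G100, but 1.79 and 1.40 against L100. At 48 h it was 2.07 and 1.80 against G100 and 2.82 and 2.55 against L100.

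ID 76374 had a narrower range. It measured 148 and 183 CPM on G90-L10 and 161, 151, 163 and 91.5 CPM on G75-L25 at 24 h. At 48 h it measured 206 and 220 CPM on G90-L10 and 231, 203, 215 and 116 CPM on G75-L25. Its lowest, median and highest levels on G100 were 49.2, 66.4 and 102 CPM at 24 h and 74.6, 80.7 and 98.3 CPM at 48 h. On L100 they were 69.8, 114 and 172 CPM at 24 h and 12.6, 84.2 and 103 CPM at 48 h. Mixtures and L100 overlapped at 24 h, while at 48 h every mixture library lay above every pure-feed library. The lowest value of all, 12.6 CPM, came from replicate 3 of L100 at 48 h, and the other 5 libraries of this group started at 71.6 CPM.

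ID 122084 was at the level of L100 on the mixtures at 24 h and above both pure feeds in most libraries at 48 h. It measured 87.1 and 114 CPM on G90-L10 and 93.5, 112, 91.3 and 69.2 CPM on G75-L25 at 24 h. At 48 h it measured 126 and 97.3 CPM on G90-L10 and 98.6, 124, 99.3 and 59.3 CPM on G75-L25. Its lowest, median and highest levels on L100 were 76.4, 94.7 and 131 CPM at 24 h and 15.4, 43.9 and 75.2 CPM at 48 h. On G100 they were 30.2, 41.9 and 53 CPM at 24 h and 30.7, 43.9 and 66.6 CPM at 48 h. The fitted log2 fold change against L100 was 0.02 for G90-L10 and -0.11 for G75-L25 at 24 h, and 1.32 and 1.09 at 48 h. Mixtures thus overlapped L100 at 24 h, and 5 of 6 mixture libraries lay above all pure-feed libraries at 48 h.

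ID 110117 was rare everywhere, with at most 21 counts in a library and 3 or fewer in 18 of 36 libraries. It passed the filter only through the mixtures. It measured 0.406 and 0.563 CPM on G90-L10 and 0.156, 0.241, 0.397 and 0.300 CPM on G75-L25 at 24 h. At 48 h it measured 0.526 and 0.545 CPM on G90-L10 and 0.649, 0.769, 0.665 and 0.898 CPM on G75-L25. The highest pure-feed level was 0.227 CPM at 24 h and 0.175 CPM at 48 h, both on G100. The groups overlapped at 24 h, and all 6 mixture libraries lay above the pure feeds at 48 h. Replicate 4 of G75-L25 was the highest of all libraries at 48 h, unlike for the other 5 genes, where it was the lowest mixture library at both times.

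**Figure D1:**
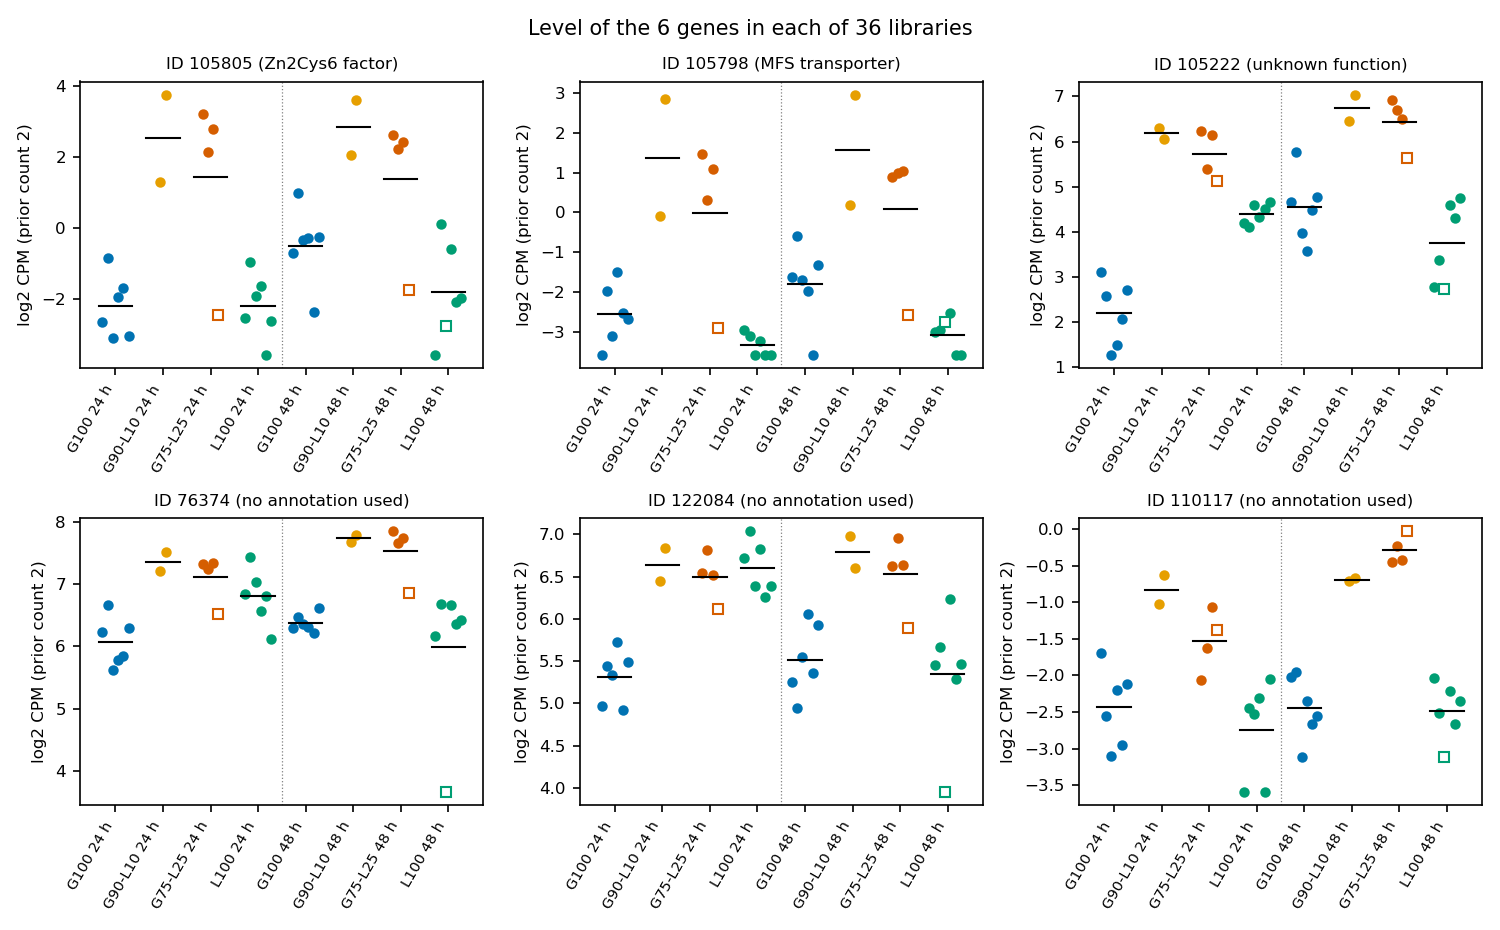
Level of each of the 6 genes as log2 CPM (prior count 2, vertical axis) in every library, by feed at 24 h (left of the dotted line) and 48 h (right). Points are libraries, lines are group means and open squares are the 3 libraries that stood apart. Replicate 4 of G75-L25 sits with the pure feeds for IDs 105805 and 105798 at both times.

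Ordered by the median level, G90-L10 at 48 h was highest for 5 of the 6 genes, and G75-L25 at 48 h for ID 110117. Over 33 libraries it was highest for 4, since ID 76374 had a median of 215 CPM on G75-L25 and 213 CPM on G90-L10 at 48 h. G90-L10 at 48 h was highest for 13.1% of all genes tested, and for 12.7% over 33 libraries. The members were chosen for higher levels on the mixtures, so nothing is read from this difference. The ranges of groups next to each other in this order overlapped in all but 3 of 42 pairs. One was ID 122084, where G75-L25 at 24 h lay above G100 at 48 h. The others were in ID 110117, where G75-L25 at 48 h lay above G90-L10 at 48 h, and G90-L10 lay above G75-L25 at 24 h. Over 33 libraries, 7 of 42 pairs did not overlap. Over all genes tested, 6.11% of such pairs did not overlap, and 9.45% over 33 libraries. Some pairs of the members set a mixture beside a pure feed, so nothing is read from these counts either.

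The separation was measured as the gap in log2 CPM from the lowest mixture library to the highest pure-feed library at the same time. Over 36 libraries the gap was positive for 1 member at 24 h (ID 105222, 0.48) and for 2 at 48 h (ID 76374, 0.17, and ID 110117, 1.24). Over all genes tested, every mixture library lay above every pure-feed library for 0.479% of genes at 24 h and 0.934% at 48 h. These comparisons chose the members, so nothing is read from the difference.

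Over 33 libraries the gap was positive for 3 members at 24 h, with 2.15 for ID 105805, 1.41 for ID 105798 and 0.74 for ID 105222. It was positive for all 6 at 48 h, at 1.07 for ID 105805, 0.77 for ID 105798, 0.69 for ID 105222, 0.98 for ID 76374, 0.37 for ID 122084 and 1.24 for ID 110117. The background was then 0.84% of genes at 24 h and 1.64% at 48 h. For all members but ID 110117, the libraries left out include the lowest mixture library, which raises the gap by construction. At 24 h the gap stayed negative for ID 76374 (-0.22), ID 122084 (-0.59) and ID 110117 (-0.37). Just inside 0 were thus ID 76374 over 36 libraries and ID 122084 over 33, both at 48 h, and just outside was ID 105222 at 48 h over 36 libraries (-0.15).

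**Figure D2:**
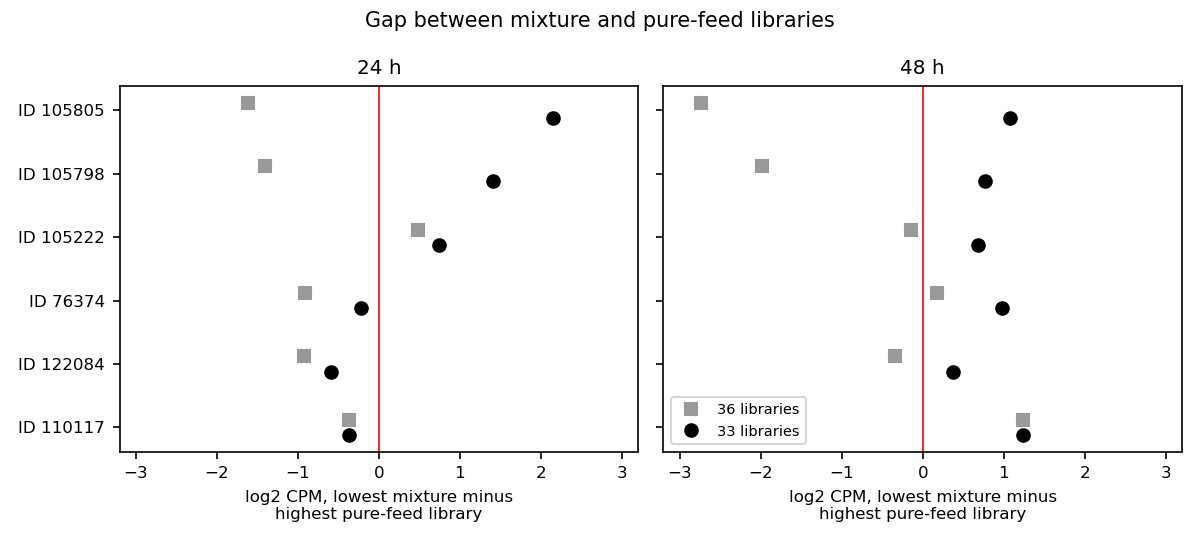
Gap in log2 CPM (horizontal axis) from the lowest mixture library to the highest pure-feed library for each gene at 24 h and 48 h, over 36 libraries (grey squares) and 33 libraries (black circles). Right of the red line, mixtures and pure feeds do not overlap, which holds for all 6 genes at 48 h over 33 libraries and for 2 over 36.

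The mean level of replicates 1 to 3 of G75-L25 was 68.7 times that of replicate 4 for ID 105805 at 24 h and 25.0 times at 48 h. For ID 105798 it was 39.5 and 21.9 times, from 1 and 2 counts in replicate 4. The ratio was 1.79 and 2.13 for ID 105222, 1.73 and 1.87 for ID 76374, 1.43 and 1.81 for ID 122084, and 0.882 and 0.773 for ID 110117. For BGL1 (ID 76672), the main extracellular *β*-glucosidase, it was 6.17 and 4.64. For the *β*-glucosidase CEL3E (ID 76227) it was 1.89 and 2.45, and for the *β*-glucosidase CEL1B (ID 22197) 1.86 and 1.25. For ACE3 (ID 77513), a transcriptional activator of cellulase genes, it was 2.08 and 1.24. The part of replicate 4 in the difference between the members was not tested.

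L100 and G100 share a label year, and their comparison describes how the members differ between the pure feeds. Levels on both pure feeds entered the choice of the members, so nothing is read from how many of them passed. The thresholds of the study were used here: a log2 fold change beyond 2 in either direction together with an adjusted p under 0.001. At 24 h, 1 of 6 members passed, against 4.22% of all genes tested. ID 105222 was higher on L100 by 2.07 ± 0.38 (log2 fold change ± SE), with an adjusted p of 3.86e-05 in edgeR's quasi-likelihood test, and its 6 libraries on L100 all lay above the 6 on G100. Without replicate 3 or replicate 4 of G100 at 24 h its log2 fold change was 1.92 or 1.95, under the threshold of 2.

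IDs 122084 and 76374 differed by less than the fold threshold. Their log2 fold changes at 24 h were 1.29 ± 0.24 (edgeR adjusted p of 5.73e-05) and 0.74 ± 0.28 (edgeR adjusted p of 0.0271). All 6 libraries of ID 122084 on L100 lay above those on G100, while the groups overlapped for ID 76374. The values for the others were 0.32 ± 1.06 for ID 105805 and -0.39 ± 0.49 for ID 110117. That of ID 110117 rests on 1 to 6 counts per library on G100 and 0 to 5 on L100. It passed the filter only through the mixtures, so no lack of response is read from its value. ID 105798 was at or under 3 counts in every L100 library and on average on G100, and is given no fold.

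At 48 h, 0 of 6 members passed in edgeR, against 3.5% of all genes tested. DESeq2 also called 0, and 2 members had an unadjusted p below 0.05 in edgeR. The log2 fold change was -0.75 ± 0.36 for ID 105222, -1.28 ± 0.84 for ID 105805, -0.14 ± 0.28 for ID 76374, -0.08 ± 0.24 for ID 122084 and -0.09 ± 0.47 for ID 110117. That of ID 110117 rests on 1 to 6 counts per library on G100 and 1 to 4 on L100, so nothing is read from it. ID 105798 had 0 to 20 counts per library on G100 and 0 to 2 on L100, and the groups overlapped. From the floor of 3 counts per library, its mean was at least 1.74-fold lower on L100. This gene passed the filter only through the mixtures, so nothing is read from its p.

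The change with time was called at an adjusted p below 0.05. On G100, 1 of 6 members rose from 24 h to 48 h, against 9.33% of genes called. ID 105222 rose by 2.38 ± 0.38 (edgeR adjusted p of 1.35e-04), and all 6 libraries at 48 h lay above those at 24 h. The change of ID 105805 was 2.26 ± 0.90 with an edgeR adjusted p of 0.114. Over 33 libraries it was 2.29 ± 0.70 with an edgeR adjusted p of 0.0216, which made 2 of 6 members, against 19.1% of genes.

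On L100, 1 of 6 members fell, against 19.6% of genes called. ID 122084 fell by 1.15 on the log2 scale (SE 0.24, edgeR adjusted p of 0.00140), and by 0.97 (SE 0.19) over 33 libraries. The change of ID 76374 was -0.61 ± 0.28 (edgeR adjusted p of 0.128), and that of ID 105222 was -0.43 ± 0.36.

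The difference between L100 and G100 changed with time for ID 105222 by -2.82 ± 0.52 (edgeR adjusted p of 0.0391). It is 1 of 6 members and 1 of 2 genes called among all tested, which is 0.024%. The call was lost when any of 19 single libraries was left out. Over 33 libraries the change was -2.66 ± 0.49 (edgeR adjusted p of 0.00341). ID 122084 was then called too, at -1.19 ± 0.26 (edgeR adjusted p of 0.00870), which made 2 of 6, against 6.5% of genes. Both had a higher level on L100 than on G100 at 24 h and overlapping levels at 48 h.

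Within the mixtures, the level did not follow the share of lactose in a way that passed a test. Between G75-L25 and G90-L10, edgeR called 0 of 6 members and 0% of all genes at 24 h and at 48 h, although 1251 and 1307 genes had an unadjusted p below 0.05. DESeq2 called 65 genes at 24 h and 16 at 48 h, none of them a member. No member had an unadjusted p below 0.05 in edgeR. The largest differences were those of ID 105798, at -1.39 ± 0.84 at 24 h and -1.61 ± 0.84 at 48 h. For ID 105805 they were -0.62 ± 0.98 and -1.01 ± 0.97. For IDs 105222, 76374 and 122084 the difference lay between -0.39 and -0.13 at both times. ID 110117 alone changed sign, with -0.82 ± 0.49 at 24 h and 0.48 ± 0.47 at 48 h, and its ranges on the mixtures did not overlap at 48 h.

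From 24 h to 48 h, edgeR called 0 of 6 members on G75-L25 and 0 of 6 on G90-L10, against 0.264% and 0.0958% of genes. DESeq2 called 0 members too. With an unadjusted p below 0.05 there were 1 member (ID 110117) on G75-L25 and 0 on G90-L10. ID 110117 passed the filter through the mixtures, where its level on G75-L25 at 48 h is high, so its difference of 1.44 on G75-L25 is a description and nothing is read from its p.

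**Figure D3:**
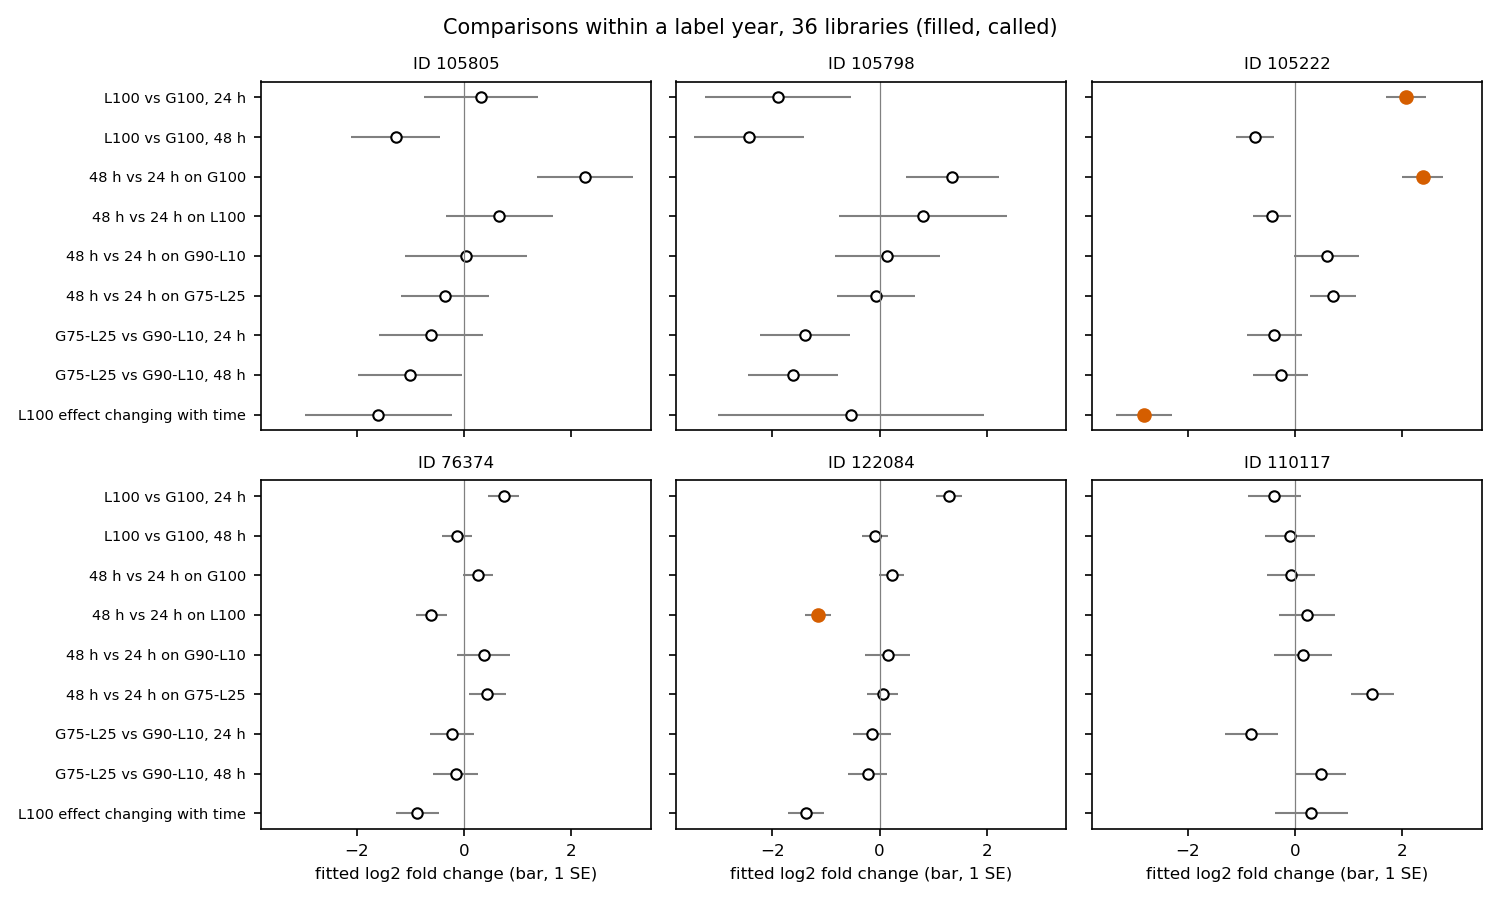
Fitted log2 fold change (horizontal axis, bars 1 SE) of each gene in the 9 comparisons within a label year over 36 libraries. Filled points passed the threshold of their comparison. ID 105222 has 3 filled points, ID 122084 has 1 and the other 4 genes have none.

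IDs 105798 and 105805 lie close together on the genome. In the RefSeq annotation of the QM6a reference strain (assembly v2.0), where all 6 members were found by locus tag, 4 gene models separate them. They are IDs 3262, 59377, 59690 (a putative secondary metabolite cluster enzyme) and 105804. Next to ID 105805 on the other side lies ID 105806, a putative toxin biosynthesis protein. The other members lie more than 5 gene models from these and from each other. In the order of the annotation, ID 105222 is model 5 and ID 76374 model 225 of a scaffold of 477 models. ID 122084 is model 205 of 350, and ID 110117 is model 2 of 193.

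Of the neighbours of this pair over 36 libraries, only ID 105806 at 24 h had every mixture library above every pure-feed library. It measured 0.296 and 2.41 CPM on G90-L10 and between 0.150 and 0.857 CPM on G75-L25 at 24 h. All lay above the highest pure-feed level of 0.123 CPM. That separation rests on 3 counts in replicate 4 of G75-L25 against 1 count in replicate 5 of L100. At 48 h it measured 0.482 and 2.13 CPM on G90-L10 and between 0.257 and 0.945 CPM on G75-L25, against at most 0.301 CPM on pure feeds, and the groups overlapped. ID 3262 measured 0.259 and 2.86 CPM on G90-L10 at 24 h and 0.307 and 2.91 CPM at 48 h. On pure feeds it had at most 5 counts in a library. On G75-L25 it measured up to 0.779 CPM at 24 h and up to 0.220 CPM at 48 h, and 0 in replicate 4 at both times, so that mixtures and pure feeds overlapped at both. ID 59690 overlapped the pure feeds at both times, with log2 fold changes of 2.40 and 1.68 for L100 against G100.

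Replicate 2 of G90-L10 was the highest mixture library for all 7 gene models from ID 105798 to ID 105806 at 24 h, and for 6 of 7 at 48 h, all but ID 59690. Over all genes tested, this library was the highest mixture library for 13.7% at 24 h and 25.2% at 48 h. Its level at 24 h was 8.33 times that of replicate 1 for ID 105798, 11 times for ID 3262, 5.64 times for ID 105805 and 8.16 times for ID 105806. It was 3.37 times for ID 59377, 3.26 times for ID 59690 and 2.18 times for ID 105804, which are named after their values were seen. A ratio above 3 was found in 0.652% of the 8285 genes with more than 3 counts in replicate 1. At 48 h the ratios were 7.34 for ID 105798, 9.47 for ID 3262, 3.01 for ID 105805 and 4.43 for ID 105806, and 1.42% of genes were above 3. They were 3.00 for ID 59377 and 5.70 for ID 105804, the latter from 4 counts in replicate 1. For ID 59690 the ratio was 0.748, so replicate 1 was higher. With 2 libraries of this feed at each time, these are values of single libraries. Just outside these 7 models the ratio at 24 h was 1.09 for ID 59775 on one side and 2.57 for ID 59655 on the other. The next model beyond ID 59775, ID 36822, had a ratio of 2.41. A ratio above 2 was found in 1.71% of genes at 24 h. Whether the pattern ends at these 7 models was not tested.

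**Figure D4:**
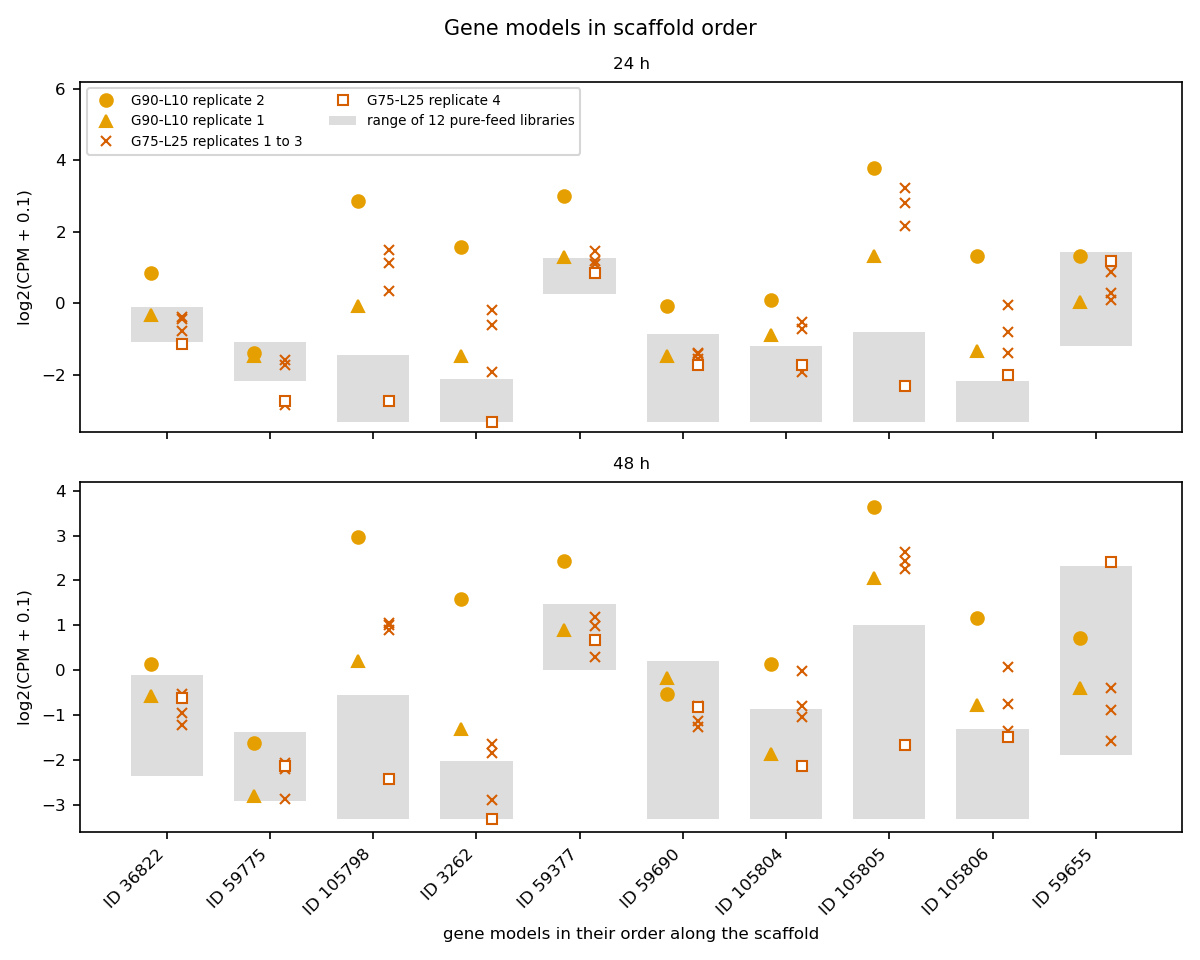
Level as log2(CPM + 0.1) (vertical axis) of 10 gene models in their order along the scaffold (horizontal axis, not to distance) at 24 h and 48 h. Grey bars span the 12 pure-feed libraries of that time. Circles (G90-L10 replicate 2) are the highest of the mixture symbols for all 10 models at 24 h and for 8 of 10 at 48 h, and open squares (G75-L25 replicate 4) lie within the grey bar for IDs 105798 and 105805.

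Of 49 genes within 5 gene models of a member, 44 were tested. Every mixture library lay above every pure-feed library for 1 of them at 24 h (ID 105806) and for 0 at 48 h. The shares of all genes tested were 0.479% and 0.934%. Over 33 libraries these were 2 at 24 h (IDs 3262 and 105806) and 1 at 48 h (ID 58767), against 0.84% and 1.64%. Nothing is read from counts this small. IDs 3262 and 105806 had at most 5 and 7 counts in a pure-feed library and passed the filter only through the mixtures. ID 58767 has no annotation in the sources used here and lies next to ID 76374. The 2 models before ID 105222 are ID 105220 (a putative DUF3328 protein) and ID 105221 (unknown function). Both were higher on L100 than on G100 at 24 h, with log2 fold changes of 2.21 and 2.66, and both overlapped the pure feeds on mixtures. Near ID 76374 lies the lytic polysaccharide monooxygenase CEL61B (ID 120961), an enzyme that oxidizes cellulose, with a log2 fold change of 4.60 for L100 against G100 at 24 h. It also overlapped.

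Likeness of pattern was measured as the root mean square difference between the 8 group means of log2 CPM, each profile centred on its own mean. ID 105805 and ID 105798 were each other's nearest gene, at 0.32, with profiles that spanned 5.05 and 4.92. Next for both came ID 104394, a putative lipase or esterase, at 0.75. The third was ID 105222 for ID 105805 (0.90) and ID 3262 for ID 105798 (0.77). Nearest to ID 105222 were ID 57101, a putative PTH11-type receptor (0.48), ID 56272, a putative cytochrome P450 (0.54), and ID 104394 (0.56).

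IDs 76374 and 122084 shared their nearest genes, ID 124295 (0.18 and 0.15) and ID 58767 (0.20 and 0.17), and differed from each other by 0.23. The third was ID 68608 (0.21) for ID 76374 and ID 70630 (0.18) for ID 122084. Nearest to ID 110117 were IDs 49274 (0.45), 60482 (0.47) and 76374 (0.47). Over 33 libraries, all 3 nearest genes were kept for 4 members and 2 of 3 for IDs 105222 and 76374. The 8 means share libraries and depth between genes, and low counts add noise to IDs 105805, 105798 and 110117.

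Members 105805, 105798 and 105222 belong to the cluster that the study described as unevenly up-regulated across lactose amounts, a list that was made on these libraries and is no independent evidence. Among its 50 other genes, every mixture library lay above every pure-feed library for 2 at 24 h and 0 at 48 h, and for 9 and 4 over 33 libraries. The shares of all genes tested were 0.479% and 0.934%, and 0.84% and 1.64% over 33 libraries. For the 50 genes, the median log2 fold change against G100 at 24 h was 2.02 for G90-L10, 2.22 for G75-L25 and 2.03 for L100. Over all genes tested these medians were 0.00, -0.01 and -0.03. Of the 50, 23 were higher and 0 lower on L100 than on G100 at 24 h, and 1 and 2 at 48 h, against 4.22% and 3.5% of all genes called. At 48 h over 33 libraries, 6 were higher and 0 lower, against 7.03% of genes.

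The study also annotated other factors and transporters among its differentially expressed (DE) genes, again chosen on these libraries. For 0 of 11 other Zn2Cys6 factors did every mixture library lie above every pure-feed library at either time, over 36 or 33 libraries. Over all genes tested the share lay between 0.479% and 1.64%, so nothing is read from 0 of 11. For the 11 factors, the median log2 fold change against G100 at 24 h was -0.60 for G90-L10, -0.86 for G75-L25 and -1.43 for L100. On L100, 3 were higher and 3 lower, against 4.22% of all genes called. The count was also 0 of 40 other MFS transporters tested. Their medians were 0.24, 1.09 and 1.35, that of G75-L25 being 0.50 over 33 libraries. On L100 at 24 h, 16 were higher and 7 lower, against the same 4.22%.

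The *β*-glucosidases and ACE3 named above are genes that the study singled out on mixtures. The median level of BGL1 at 24 h was 50.3 CPM on G100, 103 CPM on G90-L10, 238 CPM on G75-L25 and 102 CPM on L100, but its groups overlapped, with 42.2 CPM in replicate 4 of G75-L25. At 48 h, the medians were 79.3, 57.3, 93.4 and 64.4 CPM. The medians of CEL3E, CEL1B and ACE3 at 24 h were 348.8, 1547 and 1070.5 CPM on L100 and 309.6, 1765 and 1330 CPM on G75-L25. Their mixture libraries all lay above G100 at both times, but for none of these genes did all of them lie above L100 at either time.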

How the data were processed

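The authors deposited, for each of 36 libraries, whole-number counts of reads on 9129 genes without normalization, made from stranded mRNA libraries. The submitters' processing notes name bcl2fastq 2.17.1.14, Bowtie and HTSeq 0.5.3, and the genes are those of version 2 of the JGI annotation. How reads shared by similar genes were counted is not given in the sources used here.

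Counts were fitted with edgeR 4.0.16 (R 4.3.3) in 1 model with a mean for each of 8 groups, TMM scaling and filterByExpr with a minimum count of 10, which kept 8347 genes. Quasi-likelihood p-values were adjusted by Benjamini-Hochberg over these. DE genes of L100 against G100 needed an adjusted p under 0.001 and a log2 fold change beyond 2, those of other comparisons an adjusted p under 0.05. Fits were tested on simulated data. DESeq2 1.42.0, RLE scaling, library size alone, other filters, thresholds and groups of libraries, and each library left out were alternatives. Likeness and lists over 33 libraries were added after seeing the data. Each SE comes from the edgeR fit and includes the spread between libraries, while floors cover counting error only.

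The members, the lists and the libraries called apart were chosen with earlier results of these data known. Named genes are the members, the 3 genes nearest to each in pattern, neighbours within 5 gene models that lay above the pure feeds on mixtures or belong to the uneven cluster, BGL1, CEL3E, CEL1B, ACE3 and the feed markers. IDs 59377, 105804, 59775, 59655 and 36822 were added after their values were seen. No 2 libraries of a group agreed within sampling noise (chi-square per degree of freedom of at least 9.98). No sequence was used.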

Additional observations from a re-analysis of the deposited data

Results flagged for a closer look

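In groups of 4 or 6 libraries, the 6 genes gave 36 sets of values. In 4 of them, 1 library lay far from the others on the log2 scale. Chance gives this in about 1 of 20 sets taken singly. The sets share libraries and are not independent, so 4 of 36 cannot be set against that share. ID 105805 was at 0.214 CPM in replicate 4 of G75-L25 at 48 h, while the others lay between 4.65 and 6.08 CPM. ID 105798 was at 0.0856 CPM in the same library, while the others lay between 1.77 and 1.96 CPM. ID 76374 was at 91.5 CPM in replicate 4 of G75-L25 at 24 h, against 151 to 163 CPM. It was at 12.6 CPM in replicate 3 of L100 at 48 h, against 71.6 to 103 CPM. All 4 values come from the 3 libraries that stood apart over other genes.

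The difference between L100 and G100 changed from 24 h to 48 h for ID 105222 by -2.82 on the log2 scale. This came from a test of the interaction of feed and time (edgeR adjusted p of 0.0391). The call held in 17 of 36 fits that each left out 1 library. It was lost with only the groups compared (edgeR adjusted p of 0.0846). The level of ID 105222 on L100 was above G100 in every library at 24 h and overlapped it at 48 h.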

How the results depend on the processing

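No paired analysis was possible because the labels number libraries serially and do not say which of them share a starting culture. A filter of 10 counts in every library removed IDs 105805, 105798 and 110117. ID 105798 had at most 2 counts on L100, so its differences from L100 are bounds, and differences within L100 are not detectable. Scaling by library size alone moved the median of all genes by -0.61 for L100 against G100 at 24 h and -0.60 at 48 h, and turned 226 higher and 126 lower genes into 142 and 299 at 24 h, and 218 and 74 into 128 and 169 at 48 h.

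Of 6 members, the number called for L100 against G100 at 24 h was 1, but 0 with library size alone. With an adjusted p below 0.05 alone it was 3 at 24 h, and 1 in place of 0 at 48 h. That 1 was ID 105798, which passed the filter only through the mixtures. For 48 h against 24 h on G100 the number called was 1, but 2 over 33 libraries and with only the groups compared. On L100 it was 1, but 0 with the thresholds of the study. For the change of the L100 effect with time it was 1, but 2 over 33 libraries and with DESeq2, and 0 with only the groups compared and with the thresholds of the study. Leaving out 1 library each gave 0 to 1 at 24 h, 0 to 1 for 48 h against 24 h on G75-L25 (ID 110117, without replicate 3 of L100 at 48 h), and 0 to 2 for the change with time. It gave the same number as all 36 libraries in the other 6 comparisons. The counts for G75-L25 against G90-L10 and for time on either mixture were 0 under all other alternatives.

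Over 33 libraries the gap turned from -1.61 to 2.15 at 24 h and from -2.74 to 1.07 at 48 h for ID 105805, and from -1.40 to 1.41 and from -1.98 to 0.77 for ID 105798. At 48 h it turned from -0.15 to 0.69 for ID 105222 and from -0.34 to 0.37 for ID 122084. In each of these, the lowest mixture library was replicate 4 of G75-L25, and leaving it out raises the gap by construction. With library size alone it turned from 0.17 to -0.21 for ID 76374 at 48 h. Why replicate 4 was low was not tested. Over all genes, 33 libraries and DESeq2 gave 542 and 127 genes for the change of the L100 effect with time in place of 2.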
